A study of Mus musculus with 6 samples.

Results

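The genes of heterotrimeric G proteins and of the RGS proteins that regulate them were compared between adrenal glands of mice without PACAP and of wild-type mice. PACAP is the neuropeptide encoded by Adcyap1. Members were chosen by current mouse symbol: the alpha subunit genes (Gnas, Gnal, Gnaq, Gnaz, Gnao1, and Gnai or Gna with a number), the beta and gamma subunit genes (Gnb, Gng or Gngt with a number) and the genes named Rgs with a number. By this rule 41 of 11837 named genes on the array were members, with 80 of 36074 clones. They were 11 alpha, 6 beta, 10 gamma and 14 RGS genes. The symbol rule also takes in Gnb1l, a beta-like gene, and Rgs7bp and Rgs9bp, which encode proteins that bind RGS proteins. Rgs5 was not found among the annotated clones. Gnas and Gnal had no clone of their own and are described apart.

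Each of the 6 spotted cDNA arrays held 1 RNA of PACAP -/- adrenal gland labelled with Cy3 and 1 RNA of PACAP +/+ adrenal gland labelled with Cy5. Both genotypes were F2 animals of the 129XC57BL6 background. The whole gland was used, so that cortex and medulla were not separated. No array had the dyes exchanged, and a dye effect of a clone cannot be told apart from an effect of genotype. Whether the numbered repeats came from separate animals is not stated, so p-values measure the spread between arrays, which may be technical in part.

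Heterotrimeric G proteins carry signals from receptors in the cell membrane to enzymes and channels. A receptor makes the alpha subunit exchange GDP for GTP, after which the alpha subunit and the beta-gamma pair act on effectors. RGS proteins speed the hydrolysis of GTP by alpha subunits and so end the signal. The PACAP receptor of chromaffin cells, the catecholamine-secreting cells of the medulla, couples to the stimulatory alpha subunit and to that of the Gq family, and the ACTH receptor of cortical cells couples to the stimulatory one.

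The knockout could not be checked at Adcyap1, which had 1 clone that passed the quality limit on 2 arrays, at log2 ratios of -0.07 and -0.04. Without that limit its ratio lay between -1.21 and 0.53 on the 6 arrays (mean -0.09 ± 0.20, SE, n = 6; adjusted p = 0.779 in limma). Its wild-type signal exceeded the local background on 2 of 6 arrays. Signals here and below had already been background-subtracted, so the net signal is compared with the background. A net signal under the background is not by itself an absent one. Between 26027 and 31960 of the 37632 spots of an array passed the quality limit. The net wild-type signal was weakest on arrays 2 and 4, with a median of 1.37 and 1.15 times the local background, against 1.65 to 4.79 on the other arrays. The net knockout signal lay between 5.39 and 7.07 times its background. Adrenal markers of both parts of the gland moved: 4 of 8 chromaffin clones were higher and 1 was lower, and 4 of 7 cortical clones were higher, with median log2 ratios of 0.52 and 0.72. Of 6 clones of mural cells and 7 of macrophages, 1 each was higher (Acta2 at 0.97 and C1qb at 0.88). None of the tested clones of endothelium, lymphocytes, erythroid cells, Schwann cells, adipocytes and skeletal muscle passed. The part of these shifts in the results below was not tested, and in whole-gland RNA fewer cells of a type and less RNA per cell cannot be told apart.

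All values below are log2 ratios of PACAP -/- over PACAP +/+ after print-tip loess, which normalizes each print block of an array separately, unless another scale is named. A clone needed a value on at least 4 arrays. It was called at an adjusted p under 0.05 in limma (Benjamini-Hochberg over all 28751 clones tested). By that rule 69 member clones of 37 genes were tested. Of these, 10 clones were higher in the knockout, 2 were lower and 57 did not pass, which makes 17.4% of member clones called against 11.4% of all clones. The higher calls were 6.78% and the lower calls 4.62% of all clones. The median ratio was 0.09 over the member clones and -0.002 over all clones. In terms of genes, 8 had a clone that was higher and 2 had one that was lower. The 8 were Rgs2, Rgs14, Rgs4, Gnaq, Gnai2, Gna13, Gnb4 and Gngt2, and the 2 were Rgs7bp and Gng12. A gene with more clones has more chances of a call, and the share of all genes by this rule was not computed. With clones of a gene averaged, 5 of 37 member genes passed, against 895 of all 10416 genes. On every tested member clone the range of knockout signals overlapped that of wild-type signals, so the comparison rests on the ratio within each array.

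**Figure D1:**
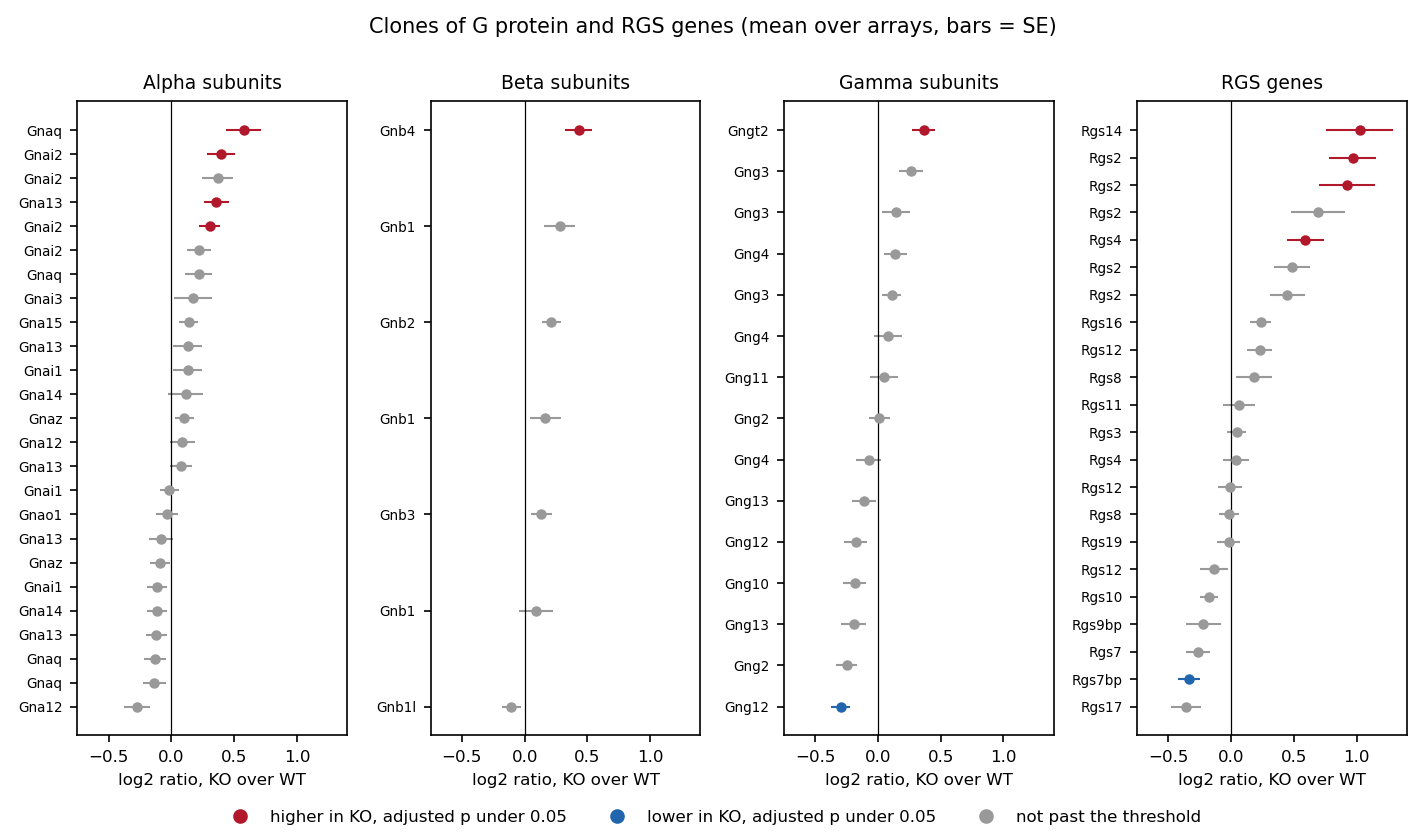
Each point is the mean log2 ratio (PACAP -/- over PACAP +/+) of 1 clone and its bar is the SE over the arrays that measured it, with 1 panel per class and clones sorted by ratio. Red marks the 10 clones higher in the knockout, blue the 2 lower ones and grey the 57 that did not pass. The RGS panel holds the 3 largest ratios.

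The calls depended on single arrays. No member clone passed when array 2, 3, 4 or 6 was left out (21 to 28 clones still had an unadjusted p under 0.05 in limma). Without array 1, 12 of 66 member clones passed, against 3773 of all 27432 clones. Without array 5, 7 of 67 passed, against 2734 of all 27684 clones. Without arrays 2 and 4 together none passed (15 at an unadjusted p under 0.05). The loss without array 2, 3, 4 or 6 holds for the array as a whole, where 1 clone passed without array 2, 3 or 6 and 28 without array 4. With global loess, which treats the array as 1 area, 18 member clones passed, 13 higher and 5 lower (26.1% of member clones, against 30.4% of all clones, 16.2% higher and 14.2% lower). Of the 12 clones called after print-tip loess, 6 were also called with global loess in the same direction and none in the opposite one. Differences between print blocks held 46.9% of the variance of the mean ratio with global loess and 0.0632% after print-tip loess. Print-tip loess fits each block separately, so its low share was fixed in advance and does not tell which normalization is more accurate.

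**Figure D2:**
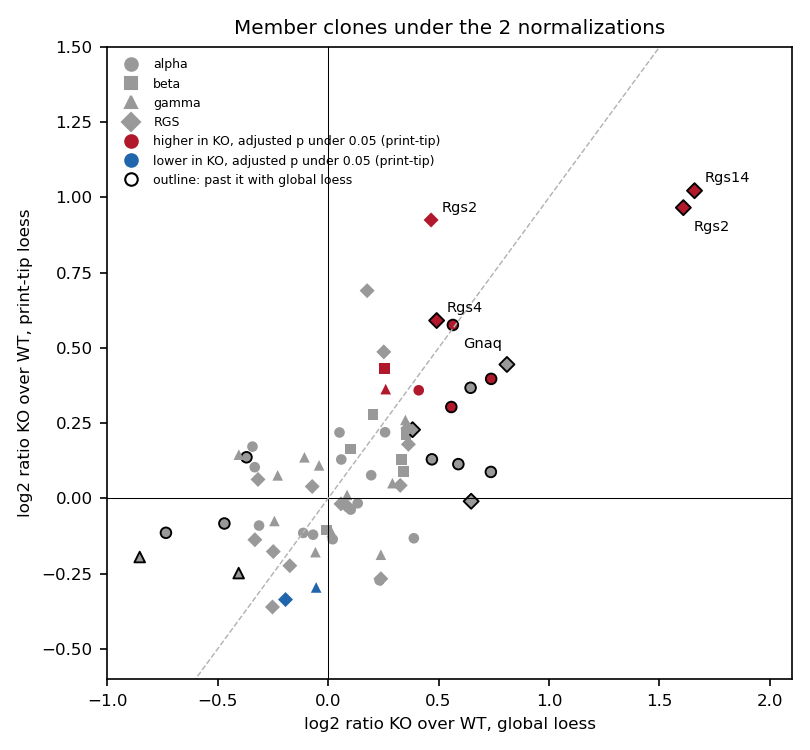
The 69 tested member clones by their log2 ratio (PACAP -/- over PACAP +/+) with global loess, on the x axis, and print-tip loess, on the y axis, with a shape for each class and the dashed line at equal values. Red and blue mark calls after print-tip loess and black outlines calls with global loess. The 6 clones called in both lie above 0 on both axes.

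Among alpha subunits, 4 of 25 tested clones were higher (16.0%, against 11.4% of all clones called) and none was lower, with a median ratio of 0.10. They belonged to Gnai2, Gnaq and Gna13. With global loess 7 alpha clones were higher and 3 lower (40.0%, against 30.4% of all clones). Gnai2, an inhibitory alpha subunit that lowers adenylyl cyclase activity, had 4 clones, all with ratios above 0 in both normalizations. The clone with the larger ratio had log2 signals between 8.55 and 9.37 (median 9.16) in the knockout and between 8.07 and 9.22 (median 8.75) in the wild type. The knockout was higher on 5 of 6 arrays, array 1 being the exception at -0.08, and the mean was 0.40 ± 0.11 (SE, n = 6; 1.32-fold, adjusted p = 0.0473). A second clone was higher on 6 of 6 arrays, at 0.05 to 0.59, with a mean of 0.30 ± 0.08 (adjusted p = 0.0464). The remaining Gnai2 clones were at 0.37 and 0.22 and did not pass. The net wild-type signal of the called clones exceeded the local background on 5 and 4 of 6 arrays. With both signals required above local background they were at 0.39 and 0.23 and did not pass (adjusted p of 0.0732 and 0.134 in limma). In the deposited value table the clone at 0.22 was at -0.34, and the others were at 0.93 to 2.31. With global loess the 4 clones lay between 0.26 and 0.74, and 3 of them passed. Averaged over its clones on each array, Gnai2 was at 0.32 ± 0.08 (higher on 6 of 6 arrays, adjusted p = 0.0395, adjusted over all averaged genes).

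Gnaq encodes the alpha subunit that activates phospholipase C-beta, and its 4 clones did not share a direction after print-tip loess. One clone, whose scanner title names the gene, gave log2 signals of 7.87 to 8.75 (median 8.40) in the knockout and 7.51 to 8.68 (median 7.61) in the wild type. It was higher on 6 of 6 arrays, at 0.07 on array 5 and 1.16 on array 4, with a mean of 0.58 ± 0.14 (SE, n = 6; 1.49-fold, adjusted p = 0.0349). Its wild-type signal, already background-subtracted, exceeded the local background on 3 of 6 arrays. The 3 other clones, whose titles name no gene, were at 0.22, -0.13 and -0.14 and did not pass, and the gene average was 0.13 ± 0.06 (adjusted p = 0.192). With global loess all 4 were above 0, at 0.02 to 0.57, and the same clone was called (adjusted p = 0.0166). Gna13, an alpha subunit of the same family as Gna12, had 5 clones. One was higher, at 0.36 ± 0.10 (n = 6, adjusted p = 0.0463; 5 of 6 arrays), with a knockout signal of 7.74 to 8.41 and a wild-type signal of 7.16 to 8.48. The 4 others lay between -0.12 and 0.13, and with global loess 1 of these passed as lower and another as higher (-0.47 and 0.47).

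The remaining alpha subunits gave no call after print-tip loess. Gnao1, the abundant neuronal alpha subunit, was at -0.04 ± 0.09 with ratios of -0.33 to 0.15 over the 6 arrays. Gnai1 had 3 tested clones at 0.13, -0.02 and -0.11, and the single Gnai3 clone was at 0.17 ± 0.15. The others ranged from Gna12, with clones at -0.27 and 0.09, to the Gq-family gene Gna15 at 0.14. Gna14, of the same family, had clones at 0.11 and -0.11, and the pertussis toxin-insensitive Gnaz had clones at 0.10 and -0.09. With global loess 4 of these clones were called: a Gna12 clone (0.74) and a Gna14 clone (0.59) as higher, and a Gnai1 clone (-0.73) and Gna15 (-0.37, adjusted p = 0.0378) as lower. Of these Gna15 had the opposite sign after print-tip loess, and so did, without a call, Gnai3 (-0.34), 1 Gnaz clone (-0.33) and the other Gna12 clone (0.23). Gnao1 (0.10 with global loess) and the Gnai1 clone at -0.02 (0.13) also changed sign without a call. Gna11, the close relative of Gnaq, was measured on 1 array only, at 0.34, and was not tested. Clones that the scanner files title as Gnai1 but the annotation gives no gene are outside these counts. They were at 0.20 and 0.18 and did not pass. With global loess the clone at 0.18 was higher (0.54, adjusted p = 0.0270 in limma), unlike the annotated Gnai1 clone called lower there.

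Gnas, which encodes the stimulatory alpha subunit that activates adenylyl cyclase, was represented by 5 clones that the annotation gives both to Gnas and to the antisense gene Gnasas1. The array does not tell the partners apart, and these clones are outside the counts above. The scanner files title 3 of them as the stimulatory alpha subunit. Those 3 had means of 0.95 ± 0.27, 0.92 ± 0.21 and 0.90 ± 0.21 (SE, n = 6), each higher on 6 of 6 arrays, with adjusted p of 0.0477, 0.0318 and 0.0324. For the clone at 0.95, knockout log2 signals lay between 11.18 and 12.63 (median 12.02) and wild-type signals between 9.20 and 12.06 (median 11.23). Its ratio was 0.12 on array 1, 1.99 on array 2, 0.53 on array 3, 2.16 on array 4, 0.23 on array 5 and 0.66 on array 6. Arrays 2 and 4, on which the wild-type signal was weakest, stood highest, and without them the 3 clones had means of 0.38, 0.58 and 0.49 (adjusted p of 0.138, 0.138 and 0.101). The clone at 0.92 also read 1.30 on array 6, and its mean with global loess, leaving out arrays 2 and 4, was 1.03 (adjusted p = 0.0234). Another clone, titled only as an EST, was at 0.90 ± 0.22 (adjusted p = 0.0376), and the clone titled as neuroendocrine secretory protein was at 0.22 ± 0.14 and did not pass (0.90 with global loess, adjusted p = 0.0024). The clone annotated to Gnal, the olfactory stimulatory subunit, together with Mppe1 was at 0.35 ± 0.09 (adjusted p = 0.0429). With global loess the 3 titled clones and the EST clone were all called, at 0.85, 1.39, 0.69 and 0.97, and the Gnal clone was not (0.23, adjusted p = 0.186). In the authors' deposited value table, centred on each array's median, the clone titled as stimulatory at 0.90, that at 0.95 and the Gnal clone were instead at -0.30, -0.04 and -0.28, while the titled clone at 0.92 was at 0.53 and the EST clone at 0.10, none of them called.

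The inhibitory subunits were set against the mean of the 3 clones titled as stimulatory, 0.92, on the same arrays. The difference was -0.92 for Gnai1 (below 0 on 6 of 6 arrays, p = 0.0312, adjusted p = 0.0469) and -0.75 for Gnai3 (below 0 on 6 of 6, p = 0.0312, adjusted p = 0.0469) in a two-sided exact sign-flip permutation test. For Gnai2 it was -0.60 (below 0 on 5 of 6 arrays, p = 0.0625, exact sign-flip permutation test), which does not pass. Without arrays 2 and 4 the differences were -0.45 for Gnai1, -0.58 for Gnai3 and -0.25 for Gnai2, and 4 arrays cannot reach an exact p below 0.125. With global loess on all 6 arrays they were -1.11 (adjusted p = 0.0938), -1.32 (adjusted p = 0.0938) and -0.43 (adjusted p = 0.188), none of which passes in the same permutation test. The smallest p that 6 arrays allow is 0.0312, and p-values were adjusted over the 3 pairs. These differences were not computed in the deposited value table. There the Gnai2 clones were at -0.34, 0.93, 1.52 and 2.31, all but the first above the 3 titled stimulatory clones. The compared clones also differed in brightness. Mean wild-type log2 signals were 10.97 to 11.29 for the stimulatory clones, 7.33 to 9.37 for Gnai1, 8.25 to 9.71 for Gnai2 and 9.16 for Gnai3.

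**Figure D3:**
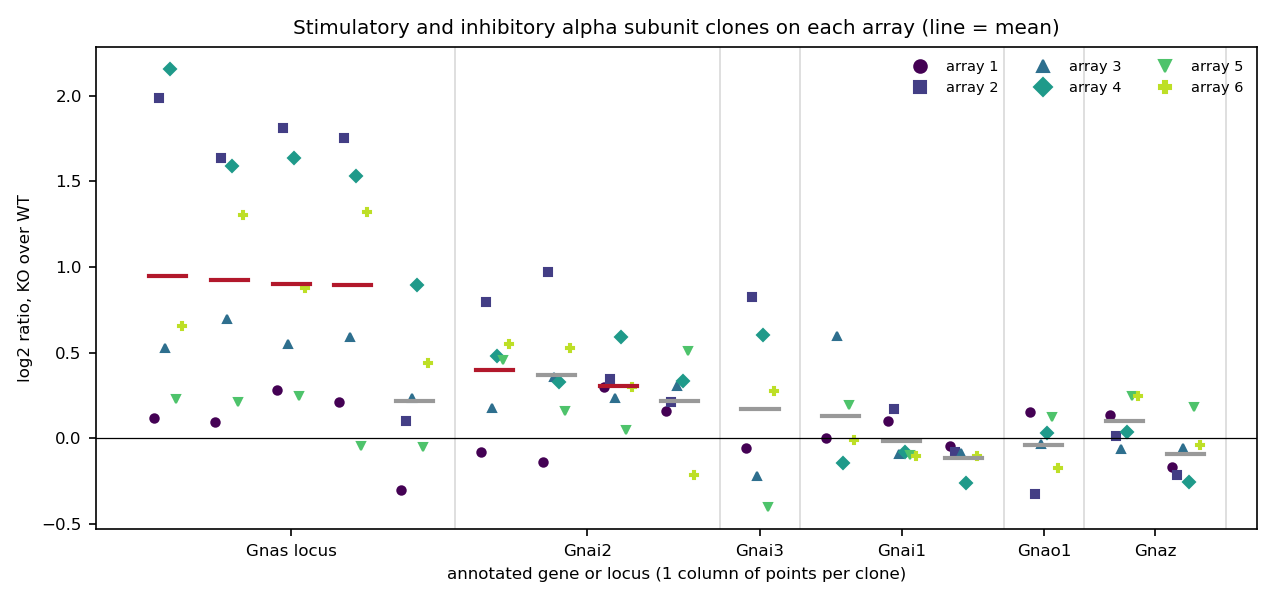
Log2 ratios (PACAP -/- over PACAP +/+) on each array for clones annotated to the Gnas locus and to inhibitory alpha subunit genes, with 1 column of points per clone, a symbol per array and a line at the mean (red where called). In the first 4 columns arrays 2 and 4 stand highest, between 1.53 and 2.16.

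Of 7 tested beta subunit clones 1 was higher (14.3%, against 11.4% of all clones called), and none was called with global loess (against 30.4% of all clones). Gnb4 encodes a beta subunit that forms dimers with gamma subunits. Its called clone had log2 signals of 8.74 to 10.59 (median 8.89) in the knockout and 8.04 to 9.96 (median 8.59) in the wild type. It was higher on 6 of 6 arrays, at 0.05 to 0.71, with a mean of 0.43 ± 0.11 (SE, n = 6; 1.35-fold, adjusted p = 0.0369), and at 0.26 with global loess (adjusted p = 0.172). A second Gnb4 clone was measured on 3 arrays and not tested. Gnb1, a widely expressed beta subunit, had clones at 0.28, 0.16 and 0.09, none of which passed. Gnb2, which is likewise widely expressed, was at 0.21 ± 0.08 (adjusted p = 0.0937), and Gnb3 was at 0.13 ± 0.08. Gnb1l was at -0.11. Gnb5, the partner of the RGS proteins of the Rgs7 family, was measured on 2 arrays, at -0.07 and -0.21, and not tested. Clones titled Gnb1 to which the annotation gives no gene are outside these counts. They were at 0.17 and 0.16 and did not pass. With global loess the clone at 0.17 was higher (0.77, adjusted p = 0.0010 in limma).

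Of 15 tested gamma subunit clones 1 was higher and 1 was lower, or 0 and 2 with global loess, and their median was 0.01. Either way 13.3% were called, against 11.4% of all clones after print-tip loess and 30.4% with global loess. The 2 normalizations shared no gamma call. Gngt2, the gamma subunit of cone photoreceptors, had log2 signals of 7.42 to 8.94 (median 8.59) in the knockout and 6.99 to 8.78 (median 8.20) in the wild type. Its ratio was above 0 on 6 of 6 arrays, at 0.16 to 0.77, with a mean of 0.36 ± 0.09 (SE, n = 6; 1.29-fold, adjusted p = 0.0394). With global loess it was at 0.26, above 0 on 3 of 6 arrays, and not called (adjusted p = 0.168). Gng12 moved the other way. Its called clone had knockout signals of 8.26 to 9.92 (median 9.75) and wild-type signals of 8.51 to 10.16 (median 10.06), and was lower on 6 of 6 arrays (-0.30 ± 0.08, 0.815-fold, adjusted p = 0.0393). With global loess it was at -0.05, and without arrays 2 and 4 at 0.0008 on that scale. The second Gng12 clone, whose title names the gene, was at -0.18 ± 0.09 and did not pass. Gng2 had clones at -0.25 ± 0.08 (adjusted p = 0.0751) and 0.01, of which the first was lower with global loess (-0.40, adjusted p = 0.0293). Gng3, a neuronal gamma subunit, had 3 clones at 0.26, 0.15 and 0.11 that did not pass. The remaining gamma clones, of Gng4, Gng10, Gng11 and Gng13, lay between -0.19 and 0.14, but a Gng13 clone was lower with global loess (-0.85, adjusted p = 0.0072). Gng5 and Gngt1 were measured on too few arrays to be tested. A clone titled Gng5 to which the annotation gives no gene was at 0.11 and did not pass.

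Of 22 tested RGS clones 4 were higher and 1 was lower, or 6 and 0 with global loess, and the 3 largest ratios of all members were among them. The called share was 22.7% against 11.4% of all clones after print-tip loess, but 27.3% against 30.4% with global loess. Rgs2 encodes a regulator that acts mainly on Gq, and its transcription is known to be induced by cAMP. It had 5 clones, all with mean ratios above 0, at 0.45 to 0.97, and 2 of them were called. The first called clone had log2 signals of 10.47 to 11.57 (median 10.90) in the knockout and 8.77 to 11.12 (median 10.21) in the wild type. Its ratio was 0.74, 1.70, 0.78, 1.77, 0.50 and 0.32 on arrays 1 to 6, with a mean of 0.97 ± 0.19 (SE, n = 6; 1.95-fold, adjusted p = 0.0273). Every array was above 0, with arrays 2 and 4 highest. Without those arrays the mean was 0.58 (adjusted p = 0.0585). Global loess gave 1.61 (adjusted p = 0.0003).

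The second called Rgs2 clone was the brightest, with signals of 14.40 to 16.02 (median 15.35) in the knockout and 13.43 to 15.05 (median 14.50) in the wild type. It was higher on 6 of 6 arrays, with a mean of 0.93 ± 0.22 (1.90-fold, adjusted p = 0.0353). Its direction depended on the scaling: it was at 0.47 with global loess (adjusted p = 0.114), -0.15 with median centring and -0.88 in the authors' deposited value table. The 3 other clones were at 0.69, 0.49 and 0.45 (adjusted p of 0.0593, 0.0531 and 0.0632). The clone at 0.69 also changed sign, at -0.01 with median centring and -0.48 in the deposited value table. It was at -0.13 with global loess without arrays 2 and 4. The clones at 0.97, 0.49 and 0.45 stayed above 0 on these scales. The clone at 0.49 is titled as another gene in the scanner files. Averaged over clones on each array, Rgs2 was at 0.70 ± 0.17 (higher on 6 of 6 arrays, adjusted p = 0.0401).

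Rgs14, whose protein regulates inhibitory alpha subunits and also binds Ras and Rap, had the largest ratio of any member clone. Its single clone gave knockout signals of 10.83 to 11.78 (median 11.51) and wild-type signals of 9.48 to 11.33 (median 10.42). The ratio was 0.51, 1.97, 1.09, 2.21, 0.27 and 0.08 on arrays 1 to 6, with a mean of 1.02 ± 0.27 (SE, n = 6; 2.03-fold, adjusted p = 0.0404). It was above 0 on every array, but the spread between arrays was wide: the mean was 0.49 without arrays 2 and 4 (adjusted p = 0.142) and 1.66 with global loess (adjusted p = 0.0007). Rgs4, a regulator of Gq and inhibitory alpha subunits, had 2 tested clones that differed. The clone that the scanner files title as NCK-associated protein 1 was at 0.59 ± 0.15 (n = 6, adjusted p = 0.0363), with knockout signals of 7.37 to 8.47 and wild-type signals of 6.54 to 8.04. Its net wild-type signal exceeded the local background on 3 of 6 arrays. The other, titled with no gene and brighter, was at 0.04 ± 0.10. Of the 4 further clones that the files title as Rgs4 but the annotation gives no gene, 3 were tested, at 0.30, 0.27 and -0.05, and none passed. The untested one was measured on 3 arrays and was lower on each, at -1.02, -0.56 and -0.35.

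Rgs7bp encodes a membrane anchor of the Rgs7 family. Its tested clone had knockout signals of 9.42 to 10.09 (median 9.91) and wild-type signals of 9.86 to 10.36 (median 10.25). It was lower on 6 of 6 arrays, at -0.57 to -0.07, with a mean of -0.34 ± 0.09 (SE, n = 6; 0.792-fold, adjusted p = 0.0395), and at -0.19 with global loess (adjusted p = 0.255). Rgs16, a regulator of Gq and inhibitory alpha subunits, was at 0.23 ± 0.08 (6 of 6 arrays, adjusted p = 0.0802). Rgs17 was at -0.36 ± 0.12 on 4 arrays (adjusted p = 0.0757) and Rgs7 at -0.27 ± 0.10 on 5 arrays (adjusted p = 0.0926), but the Rgs7 clone was at 0.24 with global loess, above 0 on 5 of 5 arrays (adjusted p = 0.188). The others, Rgs3, Rgs8, Rgs10, Rgs11, Rgs12, Rgs19 and Rgs9bp, had clones between -0.22 and 0.23, none of which passed after print-tip loess, while 2 of the 3 Rgs12 clones were higher with global loess.

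**Figure D4:**
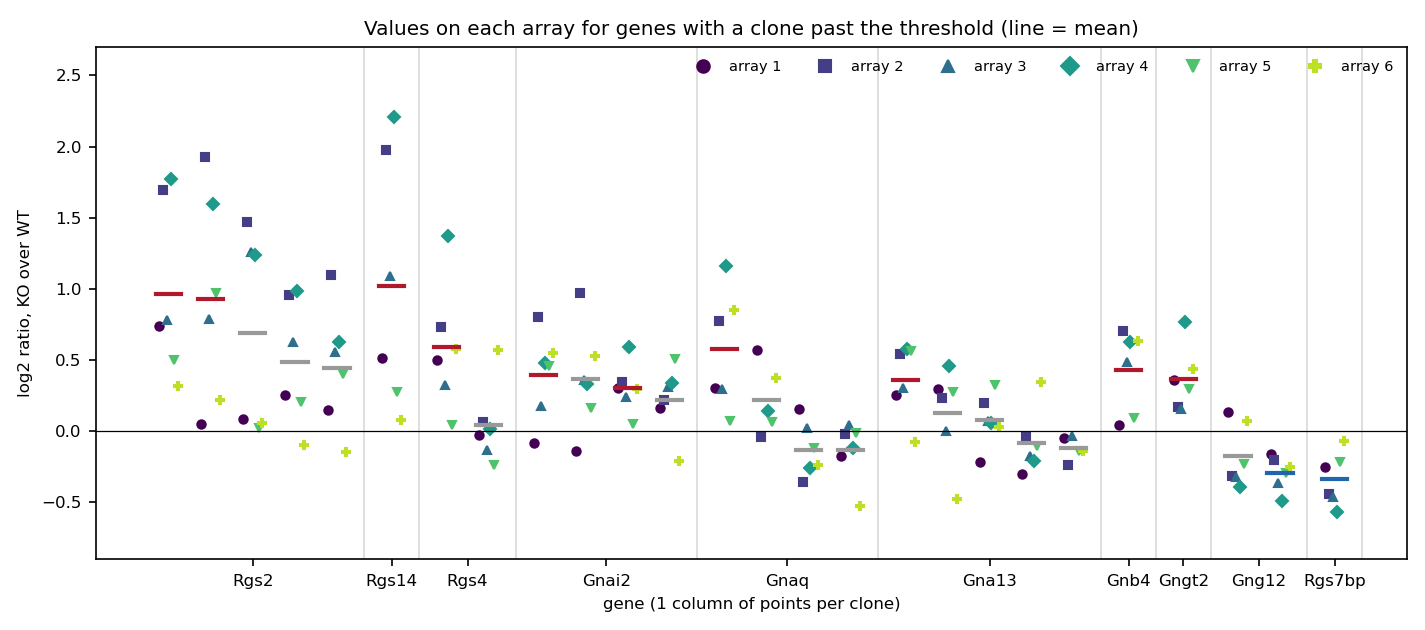
Log2 ratios (PACAP -/- over PACAP +/+) on each array for all tested clones of the 10 genes with a called clone, with 1 column of points per clone, a symbol per array and a line at the mean (red higher, blue lower, grey not past the threshold). For Rgs2 and Rgs14 arrays 2 and 4 stand above most other arrays, and Gnaq, Gna13 and Rgs4 each have clones that lie apart.

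Promoter sequences of Rgs2, Rgs4 and Rgs7bp, the called RGS genes that have an entry in the promoter table used here, are shown for the half-site of the cAMP response element, since PACAP receptors raise cAMP. Rgs14, the other called RGS gene, has no entry. The half-site searched was TGACG on either strand (CGTCA on the other). Sequences are from RefSeq on GRCm38.p6 and run from 250 bases before to 50 bases after each gene's start, printed 5′ to 3′ on the gene's strand in lower case with half-sites in capitals. Rgs2 lies at chr1:144004100-144004399, Rgs4 at chr1:169747593-169747892 and Rgs7bp at chr13:105054881-105055180, all on the minus strand.
Rgs2: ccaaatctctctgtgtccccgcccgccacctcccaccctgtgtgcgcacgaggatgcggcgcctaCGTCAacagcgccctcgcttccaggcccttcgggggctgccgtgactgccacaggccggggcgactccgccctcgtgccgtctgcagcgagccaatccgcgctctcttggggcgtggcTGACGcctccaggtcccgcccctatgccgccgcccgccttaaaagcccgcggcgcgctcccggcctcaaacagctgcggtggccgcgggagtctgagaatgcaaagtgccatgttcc
Rgs4: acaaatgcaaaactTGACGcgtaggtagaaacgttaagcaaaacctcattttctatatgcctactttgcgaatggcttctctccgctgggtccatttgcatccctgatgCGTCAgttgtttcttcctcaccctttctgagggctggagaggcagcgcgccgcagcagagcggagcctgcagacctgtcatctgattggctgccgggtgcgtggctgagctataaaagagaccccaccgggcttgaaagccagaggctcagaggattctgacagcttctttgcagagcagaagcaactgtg
Rgs7bp: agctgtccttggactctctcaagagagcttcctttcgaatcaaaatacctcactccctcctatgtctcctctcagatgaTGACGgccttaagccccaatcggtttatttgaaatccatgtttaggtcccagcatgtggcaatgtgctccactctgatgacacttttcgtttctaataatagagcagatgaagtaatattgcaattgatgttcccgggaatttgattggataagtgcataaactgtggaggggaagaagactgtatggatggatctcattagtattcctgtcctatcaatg
Rgs2 and Rgs4 each held 2 half-sites and Rgs7bp held 1. In all 32851 promoter windows of the same length, 20.8% held at least 1 half-site and 5.01% at least 2. Of 41 member windows, 10 held at least 1 (24.4%) and 4 at least 2 (9.76%). These windows belonged to 32 of the 41 member genes, since a gene can have more than 1. By gene, 10 of the 32 held a half-site in at least 1 window, a count that is not on the scale of the window shares. Among the called genes 6 had a window, with a half-site in these 3 and none in Gnaq, Gna13 and Gng12, and among the uncalled genes 7 of 26 held one. The full element TGACGTCA, which contains both half-sites, was in 1.79% of all windows and in none of the member windows. A match is a description of these letters and not of a bound site.

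Partners of the G proteins from 3 further lists were read in the same fit. Of 15 tested effector genes, 3 were higher in the knockout, none was lower and 12 did not pass, with 3 of 33 clones called against 11.4% of all clones. With global loess 7 effector genes were higher and 2 lower (12 of 33 clones, against 30.4% of all clones). Among the 3 were the adenylyl cyclase genes Adcy5 (0.97 ± 0.18, SE, n = 6, adjusted p = 0.0250) and Adcy6 (0.51 ± 0.11, adjusted p = 0.0292). Other clones of both genes did not pass, at -0.04 and -0.24 for Adcy5 and at 0.02 for Adcy6. Of 20 tested genes of other G protein regulators, 1 was higher, with 1 of 33 clones called against 11.4% of all clones. With global loess 3 of these genes were higher and 5 lower (4 and 5 of 33 clones, against 30.4% of all clones called). The gene higher after print-tip loess was Rasd2, which encodes a Ras-like GTPase (1.02 ± 0.20, adjusted p = 0.0274), not called with global loess (0.42, adjusted p = 0.0764). Its 3 other clones were at 0.19, 0.11 and -0.20. Snx14, an RGS-domain sorting nexin, came next at 0.84 ± 0.25 (adjusted p = 0.0534), and was higher with global loess (0.83, adjusted p = 0.0228). Of 16 tested receptor genes, the muscarinic receptor gene Chrm1 was higher (0.34 ± 0.09, adjusted p = 0.0381), the endothelin receptor gene Ednrb was lower (-0.32 ± 0.09, adjusted p = 0.0471) and 14 did not pass. Of 24 receptor clones 1 was higher and 1 lower, against 11.4% of all clones called. With global loess 1 receptor gene was higher and 3 lower (1 and 3 of 24 clones, against 30.4% of all clones called), and Ednrb was not called (-0.27, adjusted p = 0.124). Among the 14 receptor genes that did not pass after print-tip loess was Adcyap1r1, the PACAP receptor, with clones at 0.13, 0.03 and -0.16. The last of these was lower with global loess (-0.50, adjusted p = 0.0289). The median ratio of the clones was 0.06 for effectors, 0.01 for regulators and 0.01 for receptors, against -0.002 for all clones.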

How the data were processed

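Adrenal RNA of PACAP -/- (Cy3, green) and PACAP +/+ (Cy5, red) mice was read on 6 spotted arrays of 37632 spots. Per the series design text the slides were scanned on a GenePix 4000A and the images analysed in IPLab and a FileMaker Pro relational database. Their versions are not given in the sources used here. The deposited red and green intensity columns were background-subtracted by the authors. The deposited quality score of a ratio lies between 0 and 1. The deposited ratio column holds red over green. The series value table, deposited by the authors, gives log2 of red over green, made with a second background subtraction and values floored at 1, as a comparison with the spots showed within 0.002, and its columns are not centred. Its rows were linked to spots (35793 of 35873, 99.8%) so that genes could be named by the probe annotation and updated through RefSeq on GRCm38.p6. Clones with several genes were not named.

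Log2 ratios of green over red were computed from the intensities (values below 1 set to 1) for spots with a quality score above 0.3, without the 1048 control or empty spots. They were normalized by print-tip loess, averaged per clone and compared with 0 in limma 3.58.1 under R 4.3.3 (lmFit, eBayes). Clones needed 4 of 6 arrays, p-values were adjusted by Benjamini-Hochberg over 28751 clones and the threshold was 0.05. The fit was also run on simulated data, with noise drawn independently for each spot and array. That setting cannot show how the calls depend on single arrays. Exact tests used scipy 1.17.1 under Python 3.11.15. The number of arrays limits the precision. The deposited table had 0 sample columns left unused. Members and lists were chosen with earlier results of these data known. Named were the members with a called clone, the 3 largest of each class and a fixed list of common members, and from each further list the 2 genes of smallest p. Adcyap1r1 and the other members were named after their values were seen. One effector gene is not reported here. Alternatives were global loess, median centring, an offset of 50, the deposited value table, other quality limits (none and 0.6), a filter on dim spots, clones on all 6 arrays, array weights, averaging per gene and leaving out arrays.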

Additional observations from a re-analysis of the deposited data

Results flagged for a closer look

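Of the 69 tested member clones, 2 (2.9%) had a single array far from the others by Dixon's test, which chance gives for about 1 in 20 groups. The brighter of the Rgs4 clones was at 0.57 on array 6, its highest value, while the next of its 6 arrays was at 0.06. One Gnai1 clone was at -0.26 on array 4, its lowest value, with the next of its 5 arrays at -0.10. Neither clone was called.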

How the results depend on the processing

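The count of member clones called, 12, and of member genes, 10, moved with the processing. Median centring gave 27 of 69 clones and 19 genes, against 9451 of all 28751 clones. The deposited value table gave 0 of each (31 clones at an unadjusted p under 0.05 in limma) and no quality filter 0 of each (26 clones). With both background-subtracted signals above local background, 6 of 60 clones and 5 genes passed, against 3018 of all 24676 clones. There the member share was below that of all clones. With clones of a gene averaged 5 of 37 member genes passed, against 895 of all 10416 genes. With 1 array left out, 0 to 12 member clones and 0 to 9 genes passed after print-tip loess and 11 to 20 clones with global loess. Without arrays 2 and 4 none passed after print-tip loess. With global loess 6 of 63 member clones and 6 genes then passed, against 2244 of all 25967 clones. The count over all clones, 3276, was 8751 with global loess, 9451 with median centring, 90 with the deposited value table, 0 without the quality filter (10123 at an unadjusted p under 0.05 in limma), 4948 with array weights, 895 genes when averaged, 93 without arrays 2 and 4, 1 to 3773 with 1 array left out and 4493 to 8677 with 1 array left out under global loess (8677, 6096, 6113, 4493, 8084 and 7967 without arrays 1 to 6). The all-clone split of higher against lower calls was 59.5% higher after print-tip loess, whereas in the deposited value table all 90 called clones were higher. Some clones changed direction. The brightest Rgs2 clone was at -0.15 with median centring and -0.88 in the deposited value table. An Rgs2 clone that had not passed was at -0.01 and -0.48 on the same scales. A Gnaq clone that had not passed was at 0.47 with median centring, and the called Gng12 clone was at 0.0008 with global loess without arrays 2 and 4. In the deposited value table clones of the Gnas locus were at -0.30 and -0.0385 and the Gnal clone at -0.28. The cause was not tested. An offset of 50 and clones on all 6 arrays ended none of the 17 calls of named clones. The differences of Gnai1, Gnai2 and Gnai3 from the stimulatory clones lay at -1.07 to -0.71, -0.73 to -0.45 and -0.86 to -0.66 with 1 array left out, where 5 arrays cannot reach an exact p below 0.0625. Without arrays 2 and 4 those of Gnai1 and Gnai3 were -0.45 and -0.58, with global loess -1.11 and -1.32, and with both changes -0.65 and -1.19, none past the threshold. These alternatives for the differences, and global loess with arrays left out, were chosen after seeing the data. Both genotypes share each array, so every ratio is paired by array, and no further block on the array number could be fitted.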

Other observations

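Calls differed between the clone collections printed on the array. Of 28 tested member clones on plates named BMAPI, 28.6% were called after print-tip loess, against 11.7% of all clones on those plates. On plates named NIA 7.14% of 28 member clones were called, against 12.6% of all clones there. On plates named BMAPII 15.4% of 13 member clones were called, against 8.02% of all clones there. With global loess the shares of member clones were 17.9%, 39.3% and 15.4% in that order, against 29.6%, 32.7% and 26.6% of all clones. No test of these differences was made.

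The clone titled Rgs3 to which the annotation gives no gene was at 0.42 (adjusted p = 0.0324 in limma), but at -0.16 with global loess, while the annotated Rgs3 clone was at 0.04.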
